A study of Mus musculus with 3 samples.

Results

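Homeostatic microglia genes are a set of 9 genes that mark microglia, the resident macrophages of the brain parenchyma, in the undisturbed state: P2ry12, Tmem119, Cx3cr1, Sall1, Siglech, Gpr34, Olfml3, Fcrls and Selplg. They were taken by name from the 17551 genes of the deposited table, and all 9 were found. The data came from CITE-seq, which reads mRNA and antibody tags of surface proteins in the same single cells, of 4 brains of female C57BL/6 mice aged 2 to 3 months. The series held brains with metastases of E0771 cells, which come from a mouse mammary tumor and had been given by carotid injection about 2 weeks earlier, and naive brains without metastases. Each brain was 1 animal, was stained with the same 6 antibodies and with its own hashtag, and all were run as 1 pool of cells after papain digestion and a Percoll gradient. The sources used here do not say which hashtag marked which condition. The brains are therefore named by hashtag and described one by one, and no condition was assigned to a brain.

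In textbook microglia biology, the transcription factors PU.1 and Sall1 and the cytokine TGF-beta maintain a set of sensing and adhesion genes, and this set is lowered when microglia respond to injury, infection or a tumor. Microglia sample the tissue with motile processes that carry receptors for nucleotides, chemokines and lipids. P2ry12, Cx3cr1 and Gpr34 are such receptors, Sall1 is a transcription factor, Tmem119, Siglech, Fcrls and Selplg encode surface or Fc receptor-like molecules, and Olfml3 encodes a secreted glycoprotein.

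The 4 brains are told apart only by the hashtag oligonucleotides, which are shown because every comparison between brains rests on them. Each is a synthetic barcode, written whole in capitals.
hashtag 1: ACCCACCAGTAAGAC
hashtag 2: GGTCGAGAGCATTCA
hashtag 3: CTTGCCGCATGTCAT
hashtag 4: AAAGCATTCTTCACG
The barcodes were counted in every cell, and the class assigned by the authors matched the most abundant barcode in 100% of the 4668 cells.

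Promoter sequences were read for the members from RefSeq (GRCm38.p6, the assembly of mm10, which the submitters' processing notes name as the build). The table held 8 windows for 6 members and none was used for Tmem119, Gpr34 and Selplg. The 250 bases before the start used by the RefSeq promoter table, which for Fcrls and Siglech lies inside the gene span given further on, are shown for P2ry12, Fcrls and Siglech, whose levels moved together across clusters, and for Olfml3, whose level did not follow them closely. Capitals mark matches on either strand to GAGGAA, the core of the PU.1 motif, or to GGAAGT, an ETS motif, of which a match on the minus strand reads as its reverse complement.
P2ry12, chr3:59262986-59263235, minus strand: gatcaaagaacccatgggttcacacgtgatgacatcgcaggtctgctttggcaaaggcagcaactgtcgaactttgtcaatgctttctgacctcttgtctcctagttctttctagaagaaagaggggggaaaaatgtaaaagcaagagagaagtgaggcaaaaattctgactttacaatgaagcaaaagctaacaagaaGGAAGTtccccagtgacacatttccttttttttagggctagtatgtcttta
Fcrls, chr3:87263525-87263774, minus strand: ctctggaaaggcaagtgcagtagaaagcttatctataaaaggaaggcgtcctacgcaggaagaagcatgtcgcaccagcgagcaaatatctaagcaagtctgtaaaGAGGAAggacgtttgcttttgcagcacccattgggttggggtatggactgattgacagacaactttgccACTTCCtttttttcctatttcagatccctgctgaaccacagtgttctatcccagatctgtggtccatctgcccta
Siglech, chr7:55767934-55768183, plus strand: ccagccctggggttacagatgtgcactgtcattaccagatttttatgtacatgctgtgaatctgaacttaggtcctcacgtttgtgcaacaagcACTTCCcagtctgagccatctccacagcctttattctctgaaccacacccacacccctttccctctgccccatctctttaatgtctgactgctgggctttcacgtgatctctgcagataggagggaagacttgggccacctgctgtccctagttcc
Olfml3, chr3:103738002-103738251, minus strand: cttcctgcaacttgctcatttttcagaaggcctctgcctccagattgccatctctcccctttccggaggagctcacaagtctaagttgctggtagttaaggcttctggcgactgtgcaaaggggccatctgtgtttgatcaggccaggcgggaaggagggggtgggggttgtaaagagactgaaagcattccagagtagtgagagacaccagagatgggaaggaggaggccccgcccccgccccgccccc
GGAAGT lay 51 bases before the start of P2ry12, 75 before that of Fcrls and 156 before that of Siglech, and GAGGAA lay 144 bases before that of Fcrls. Of the 8 windows, 4 held GGAAGT and 1 held GAGGAA, and by gene these were 4 and 1 of the 6 members. Sall1 had more than 1 window, so only the counts by window compare with the shares of promoters that follow. Neither motif was found in the windows of Olfml3 and Cx3cr1. Cx3cr1, whose window is not shown, also moved with P2ry12 across clusters. Its Pearson r with P2ry12 was 0.94, against 0.89 for Fcrls and 0.88 for Siglech. Among 32851 promoters of the same length, 19.7% held GGAAGT and 23.3% held GAGGAA. The AP-1 motif TGANTCA was in 6.75% of all promoters and in 0 of the 6 members. The motifs do not overlap each other in these windows, and a match is a description of the letters only.

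The members lie on 6 chromosomes. In GRCm38.p6, P2ry12 is at chr3:59216271-59262985, Tmem119 at chr5:113793729-113800396, Cx3cr1 at chr9:120048683-120068296, Sall1 at chr8:89027242-89044162, Siglech at chr7:55768154-55779448, Gpr34 at chrX:13622650-13640859, Olfml3 at chr3:103735394-103738001, Fcrls at chr3:87250736-87263765 and Selplg at chr5:113817798-113832528. Tmem119 and Selplg are 17401 bases apart, with 2 annotated genes between them. P2ry12 overlaps the annotated gene Med12l, Gpr34 overlaps Cask, Cx3cr1 overlaps Gm33858, Sall1 overlaps Gm3134 and Siglech overlaps Gm39015. Whether the authors' counting used strand is not given in the sources used here, so reads of these 5 members and their overlapping genes may not have been told apart.

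A value below is the count of UMIs (unique molecular identifiers, each 1 captured mRNA) per 10000 UMIs of the cell, averaged over cells. The 4 brains gave 410 to 2029 cells, with a median of 4370.5 to 12806 UMIs per cell, and the deposited clustering had 11 clusters, numbered 0 to 10. To compare shares of cells across depths, every cell was thinned to 2495 UMIs, the total of the shallowest cell. Cluster 3 held 404 cells: 21, 34, 155 and 194 of the brains with hashtags 1, 2, 3 and 4. These were 2.49%, 8.29%, 11.2% and 9.56% of the cells of each brain. The median own-hashtag share of cluster 3 cells was 74.5%, 82.3%, 95.7% and 97.5% in the same order, so droplets of the hashtag 1 and 2 brains were less cleanly assigned. An own-hashtag share of 80% or more was reached by 7, 18, 122 and 161 of the cells. All intervals below are exact 95% intervals, Poisson for levels (on the summed UMIs of the cells) and Clopper-Pearson for shares, and cover counting error only.

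All 9 genes had their highest mean in cluster 3, by the mean over brains with at least 20 cells. The deposited clusters were made from expression, so this is a description and not a test. Cluster 3 also held RNA that marks other cells. The summed level of 23 marrow-derived monocyte genes was 96.8 to 178.2 per 10000 across the brains. Ttr, which encodes transthyretin and is made in bulk by choroid plexus epithelium, was at 220.7 per 10000 in cluster 3 and at 3167 in cluster 1, and the 6 choroid plexus genes were all seen in cluster 3.

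**Figure D1:**
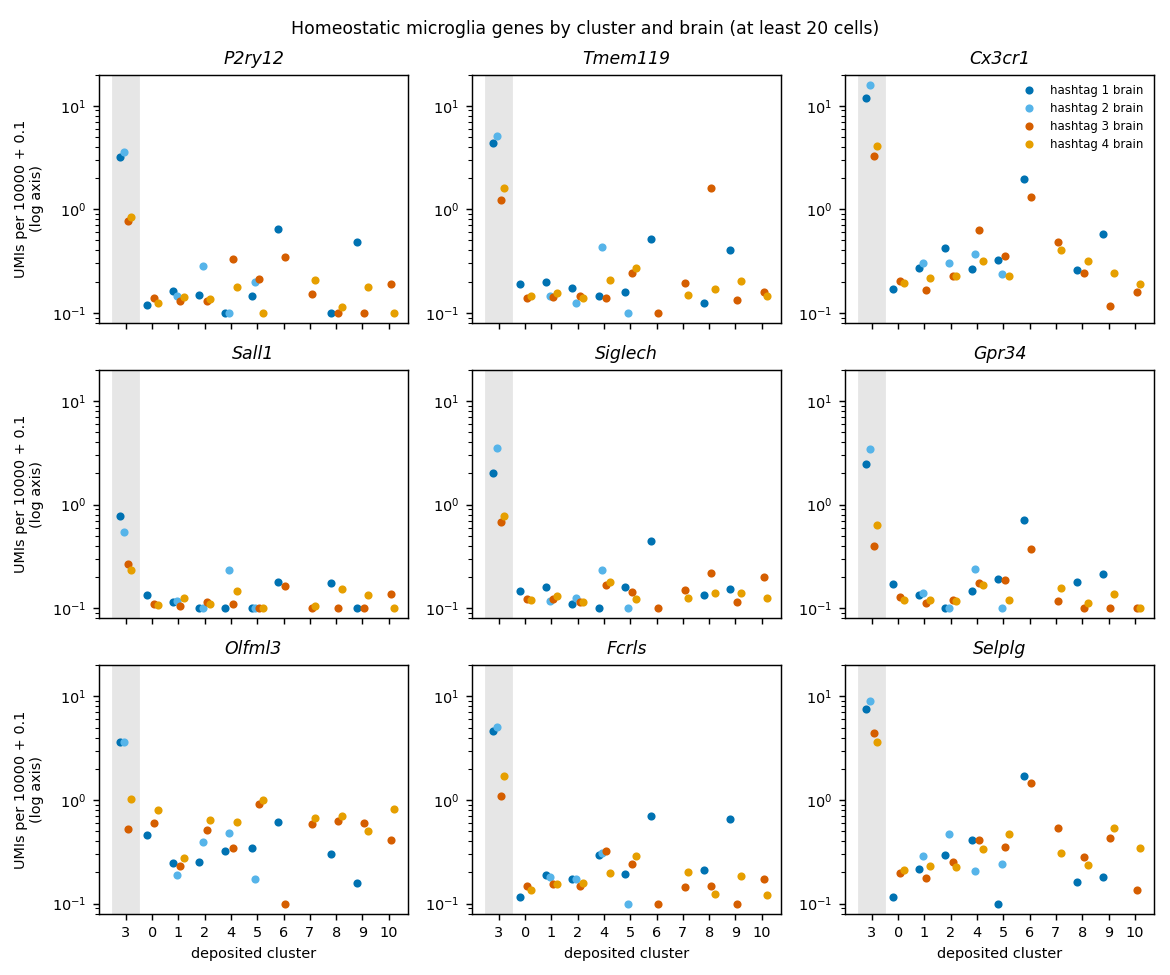
Mean UMIs per 10000 plus 0.1 (log axis) of each of the 9 genes by deposited cluster, cluster 3 at the left on grey, 1 point per brain with at least 20 cells of the cluster. The mean over brains is highest in cluster 3 in every panel, while in the Olfml3 panel 9 of the other 10 clusters have a brain at or above the lowest cluster 3 brain, 0.425 per 10000.

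Among the receptors, P2ry12, the ADP receptor that steers microglial processes to injury, averaged 2.01 ± 1.52 per 10000 in cluster 3 (SD over brains, n = 4). In cluster 6, which came next, it averaged 0.394 over the 2 brains with at least 20 cells. Cx3cr1, the receptor of the chemokine Cx3cl1, averaged 8.70 ± 6.13 per 10000 in cluster 3 (SD, n = 4) and 1.54 in cluster 6. Both receptors were thus 5.11-fold and 5.64-fold higher in cluster 3 than in the next cluster. Gpr34, a receptor for lysophosphatidylserine, averaged 1.62 ± 1.45 per 10000 in cluster 3 (SD, n = 4) and 0.444 in cluster 6, a 3.65-fold difference. Its lowest brain in cluster 3, at 0.296 per 10000, lay below the higher of the 2 brains of cluster 6, so the clusters overlapped for this gene.

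Sall1, the zinc finger factor that holds microglial identity, was sparse, with 0.356 ± 0.257 per 10000 in cluster 3 (SD over brains, n = 4) against 0.0697 in cluster 6. After thinning it was seen in 4.95% of cluster 3 cells, against 0% to 1.79% of the cells of every other cluster.

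Of the surface and Fc receptor-like genes, Fcrls and Siglech stood furthest above the next cluster. Fcrls averaged 3.05 ± 2.03 per 10000 in cluster 3 (SD over brains, n = 4) and 0.299 in cluster 6, a 10.2-fold difference. Siglech, a sialic acid-binding lectin also known from plasmacytoid dendritic cells, averaged 1.65 ± 1.32 per 10000 in cluster 3 (SD, n = 4) and 0.171 in cluster 6, a 9.63-fold difference. No brain of any other cluster reached the lowest cluster 3 brain for either gene. Selplg, which encodes the selectin ligand PSGL-1 and is used by many leukocytes, averaged 6.06 ± 2.56 per 10000 in cluster 3 (SD, n = 4) and 1.48 in cluster 6.

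Tmem119, a transmembrane protein gene used as a microglia marker in the brain, averaged 2.99 ± 1.96 per 10000 in cluster 3 (SD over brains, n = 4), and its next cluster was cluster 8 with 0.527. That mean came from 1 brain: Tmem119 was at 1.49 per 10000 in cluster 8 of the hashtag 3 brain, with 18 UMIs in 8 of 31 cells, against 0.0245 and 0.0682 in the other brains with at least 20 such cells, those of hashtags 1 and 4. None of those 8 cells carried 3 or more members, and in them P2ry12, Sall1, Siglech, Gpr34 and Fcrls had 0 UMIs, while Cx3cr1, Olfml3 and Selplg had 1 UMI each. The same 8 cells held Dcn, a matrix proteoglycan gene of fibroblasts, at 6.71 per 10000, against 1.33 in the other 23 cells of the cluster and brain. They also held Mgp, a matrix gene, at 152.2 per 10000, against 23.3, and Apod at 34.7, against 3.11. These 3 genes were chosen after their values were seen. Of other fibroblast genes, Col1a1 and Col1a2 were at 1.43 and 3.85 per 10000 in the 8 cells, against 0.099 and 2.20. Lum went the other way, with 0 UMIs in the 8 cells and 1 in the other 23. So in cluster 8 Tmem119 was seen apart from the rest of the set.

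Olfml3 was the member least tied to cluster 3. It averaged 2.103 ± 1.66 per 10000 there (SD over brains, n = 4) and 0.528 in cluster 7, and in 9 of the other 10 clusters at least 1 brain reached the lowest cluster 3 brain, which was at 0.425. Before thinning it was seen in 49.1%, 51.5% and 62.7% of the cells of clusters 0, 2 and 7, against 29.5% of cluster 3 cells, which are shallower (median 3815 UMIs, against 13009, 18775 and 27670). After thinning these shares were 14.7%, 11.7% and 12.3%, against 18.8% in cluster 3. Clusters 0, 2 and 7 carried Rhox5, a homeobox gene listed here among the mammary carcinoma markers, at 4.68 to 4.88 per 10000, against 0.695 in cluster 3. In the order of hashtags, cluster 0 held 5.21%, 3.41%, 30.6% and 34.7% of the cells of each brain. Cluster 2 held 4.86%, 5.85%, 20.6% and 21.1%, and cluster 7 held 1.07%, 1.46%, 5.49% and 5.96%. No condition was read from this split, and its relation to the member levels was not tested. The choroid plexus-like cluster 1 gave the lowest mean of Olfml3, 0.135 per 10000. The other 8 members were seen after thinning in 0% to 6.8% of cells in each cluster other than 3 and 6. In the choroid plexus-like cells of cluster 1, thinned to the same 2495 UMIs and not expected to use these genes, the 9 shares were 0.114% to 3.64%. They are given as a reference level, and the source of this RNA was not tested.

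Across 35 points, each a brain and cluster with at least 20 cells, the log2 levels of a member correlated with those of the other 8 at a mean Pearson r of 0.79 to 0.87 for 8 members and of 0.58 for Olfml3. The points share a library and the depth of their cells, so r is a description. The non-members with the most similar pattern over the same points were P2ry13, Cryba4, Il21r, RP23-81F19.2, Trem2, Ccl12, Tbxas1, C1qc, Pde3b and C1qa, out of 6672 genes considered. P2ry13 had a mean r to the members of 0.867 and C1qa one of 0.847.

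Within cluster 3 every member was higher in the hashtag 1 and hashtag 2 brains than in the hashtag 3 and hashtag 4 brains. For P2ry12 the level was 3.13, 3.51, 0.666 and 0.741 per 10000 in the brains with hashtags 1, 2, 3 and 4. Tmem119 was at 4.30, 5.02, 1.12 and 1.499 in the same order. Cx3cr1 was at 11.9, 15.8, 3.16 and 4.02. For these 3 genes the intervals of the hashtag 1 and 2 brains did not overlap those of the hashtag 3 and 4 brains. Gpr34 had the widest spread, 11.2-fold, with 2.35, 3.31, 0.296 and 0.534 per 10000. Olfml3 followed with 3.55, 3.51, 0.425 and 0.920. Selplg had the narrowest spread, 2.52-fold, with 7.45, 8.95, 4.30 and 3.56. Sall1 had 0.682, 0.441, 0.168 and 0.132 per 10000, from 5, 8, 11 and 12 UMIs. Its intervals overlapped between every pair of brains, so no order of brains was detectable for Sall1 at this depth. Siglech was at 1.92, 3.40, 0.587 and 0.671, and Fcrls at 4.56, 5.01, 1.002 and 1.61. Both kept the same order as the receptors.

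Comparing brain by brain, the hashtag 1 brain lay above the hashtag 3 brain, and above the hashtag 4 brain, without overlap of intervals in 8 of 9 members. The hashtag 2 brain did so against each of them in 8 of 9 members as well, Sall1 being the exception in all these pairs. Between the hashtag 1 and 2 brains the intervals overlapped in 8 of 9 members, Cx3cr1 being the exception. The share of all genes with intervals apart between the same brains was not counted. These counts, and those for chosen cells further on, are therefore a description and do not set the members apart from other genes. Among cells with at least 80% own hashtag, the mean of every member was again higher in the hashtag 1 and 2 brains, with P2ry12 at 3.30, 3.48, 0.696 and 0.667 per 10000 in the order of hashtags. Sums of other gene lists in cluster 3 also differed between the brains. In the order of hashtags, 26 disease-associated microglia genes summed to 245.2, 293.5, 362.0 and 491.0 per 10000, and 20 interferon response genes to 35.0, 27.9, 66.6 and 92.6. Immediate early genes summed to 178.5, 219.6, 143.6 and 94.6 per 10000, and B cell genes to 38.1, 78.6, 10.6 and 3.27. Neutrophil genes did not split the brains in this way, at 115.3, 25.4, 38.3 and 62.5. The part of these genes in the member levels was not tested. With 1 animal per hashtag and no condition assigned to a hashtag, no test between brains was made. The p-values further on compare cell groups within these brains only. In limma they rest largely on a spread pooled over genes and do not measure variation from animal to animal.

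**Figure D2:**
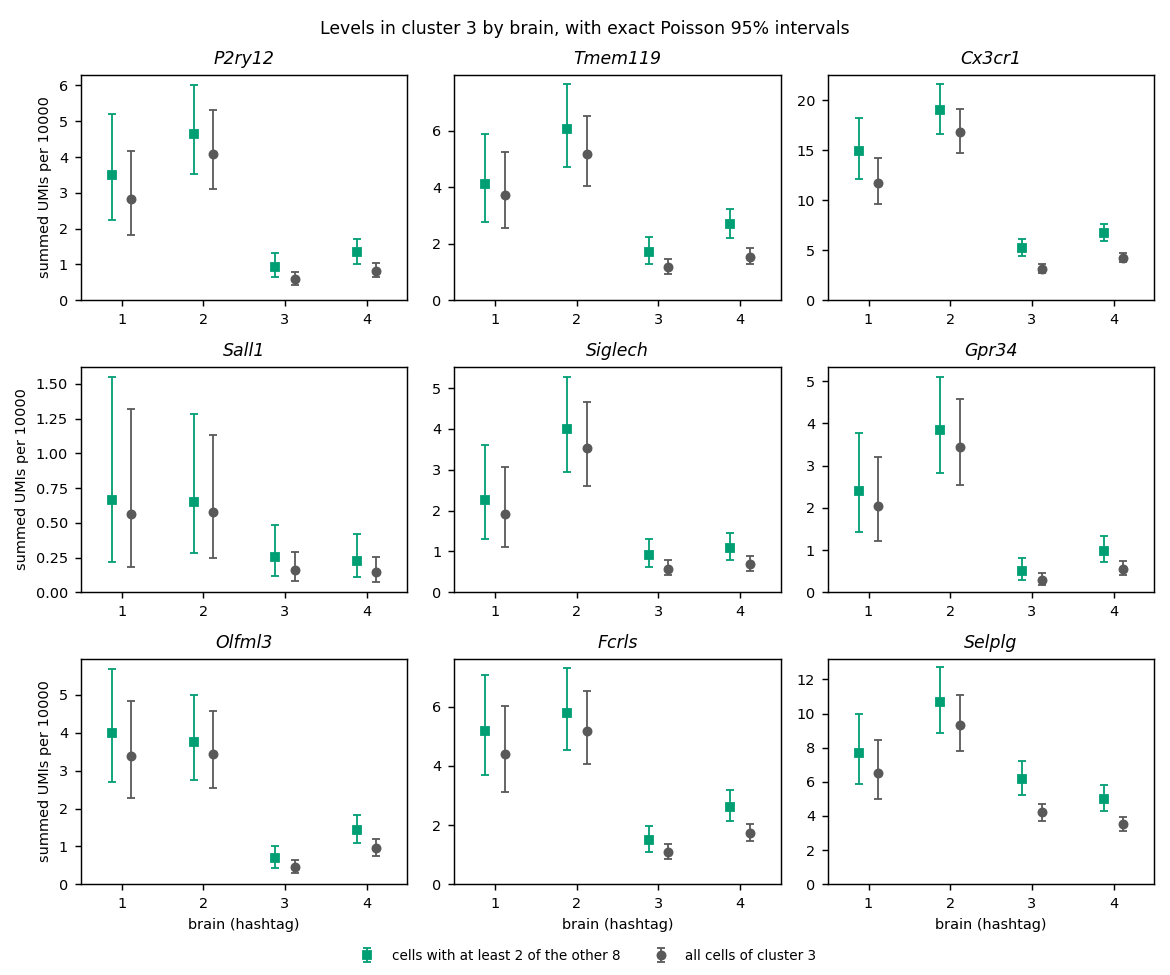
Summed UMIs per 10000 of each gene in cluster 3 by brain, in cells that carry at least 2 of the other 8 members (green squares) and in all cells (grey circles), with exact Poisson 95% intervals. The hashtag 1 and 2 brains have the higher point in every panel for both sets of cells, and for Sall1 the intervals of all 4 brains overlap.

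The number of members seen per cell showed how far the difference lay in the cells that carry them. After thinning, at least 3 of the 9 members were seen in 16 of 21 cells (76.2%, interval 52.8% to 91.8%) in the hashtag 1 brain and in 27 of 34 (79.4%, 62.1% to 91.3%) in the hashtag 2 brain. The share was 47 of 155 (30.3%, 23.2% to 38.2%) in the hashtag 3 brain and 64 of 194 (33.0%, 26.4% to 40.1%) in the hashtag 4 brain. None of the 9 was seen in 3, 2, 30 and 39 cells. Only 2 of the 404 cells, both of the hashtag 1 brain, carried all 9. Cells with at least 3 members are called carriers here and cells with none member-free. The median was 5 members per cell in the hashtag 1 and 2 brains and 2 in the hashtag 3 and 4 brains.

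**Figure D3:**
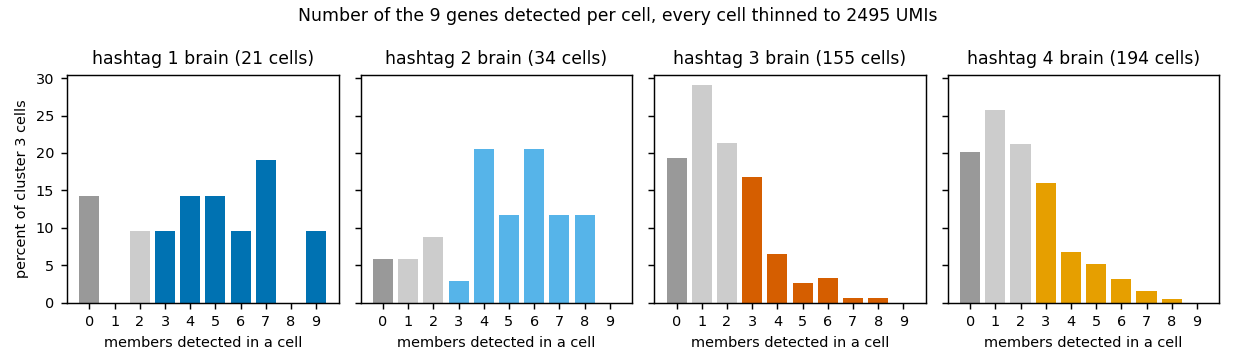
Percent of cluster 3 cells of each brain by the number of the 9 genes detected, after thinning to 2495 UMIs; dark grey bars are member-free cells, light grey bars cells with 1 or 2 members and coloured bars carriers. The hashtag 3 and 4 brains peak at 1 member, while the hashtag 1 and 2 brains have most cells at 4 or more.

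Of 207 carriers in the whole table, 154 (74.4%) were in cluster 3 and 29 (14.01%) in cluster 6, and no other cluster held more than 5. Cluster 6 was led by neutrophil RNA, with S100a8, an alarmin of neutrophils, at 519.1 per 10000 against 24.6 in cluster 3. Its carriers were 26 of 171 cells in the hashtag 1 brain and 3 of 9 in the hashtag 2 brain. None was seen among 26 cells of the hashtag 3 brain and 17 of the hashtag 4 brain, and a limit of 3 counts, used here in place of the Clopper-Pearson bound, would be 11.5% and 17.6%. The 26 carriers of the hashtag 1 brain had a median of 4687 UMIs, against 3715 in the other cells of the cluster and brain. Their 12 neutrophil genes summed to 1889 per 10000, against 1100, and 37 other homeostatic microglia genes to 271.9, against 48.7. Whether such droplets held more than 1 cell was not tested.

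To separate the number of carrying cells from the level in them, each member was read in the cells with at least 2 of the other 8. P2ry12 was then at 3.77, 3.97, 1.09 and 1.18 per 10000 in the brains with hashtags 1, 2, 3 and 4. Cx3cr1 was at 14.6, 17.8, 5.36 and 6.46. The order of brains stayed and the spread from the highest to the lowest brain fell to 3.64-fold for P2ry12 in these cells, against 5.27-fold in all cells, and to 3.33-fold, against 4.998-fold, for Cx3cr1. Selplg was at 8.69, 10.2, 6.39 and 4.92 per 10000, a 2.07-fold spread. In cells with at least 4 of the other 8, a definition chosen after seeing the data, the spread was 2.03-fold for P2ry12, 1.85-fold for Cx3cr1, 3.67-fold for Gpr34 and 1.56-fold for Selplg. The means of all 9 members were still higher in the hashtag 1 and 2 brains there, but fewer intervals stayed apart. The hashtag 2 brain lay above the hashtag 3 brain without overlap in 7 of 9 members and above the hashtag 4 brain in 3. The hashtag 1 brain did so in 3 of 9 against the hashtag 3 brain and in 2 against the hashtag 4 brain. Gpr34 in the cells with at least 2 others was at 2.74, 3.70, 0.518 and 0.943 per 10000, the widest spread of the 9, 7.13-fold. Cells chosen by more members are also cells with higher levels of all of them where the members move together, so the 3 sets are given side by side.

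Within cluster 3 a cell that held 1 member more often held another than a cell without it. For each of the 36 pairs the odds ratio of detection in the same thinned cell, pooled over brains with the Mantel-Haenszel formula, was above 1, with a median of 3.16. Cells are not replicates, so no p-value is given. The highest ratio was that of Sall1 with Selplg, 13.4, where 19 of the 20 Sall1 cells also held Selplg. Cx3cr1 with Gpr34 followed at 10.1, since 44 of 48 Gpr34 cells held Cx3cr1. Gpr34 with Selplg stood at 6.32 and Sall1 with Gpr34 at 5.63. Sall1 and P2ry12 had the lowest ratio, 1.06, with 5 cells that held both, and it was above 1 in 2 of the 4 brains. Fcrls and Selplg stood at 1.40. Tmem119 and Selplg, neighbours on chromosome 5, had a ratio of 1.57, among the 3 lowest. By gene, the median ratio with the other 8 was highest for Cx3cr1, 4.29, and lowest for Fcrls, 2.66. In the hashtag 3 and 4 brains alone, 35 of 36 ratios were above 1, with a median of 3.06. Pairing within cells was thus not limited to the brains with the higher shares of carriers.

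**Figure D4:**
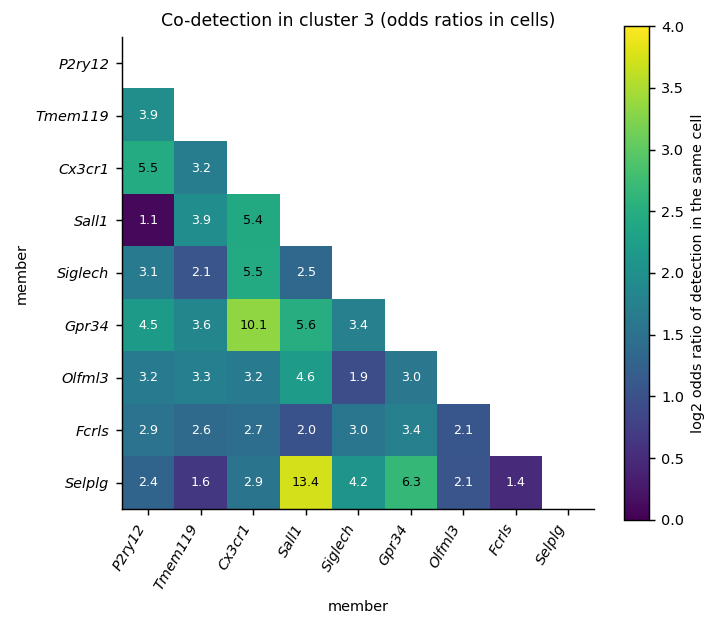
Odds ratio of detection in the same cluster 3 cell for each pair of members, written in the cell and coloured on a log2 scale. All 36 are above 1, from 1.06 for Sall1 with P2ry12 to 13.4 for Selplg with Sall1.

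What else marked the carriers was asked of the genes outside the set. Carriers were compared with member-free cells of the same brain, which was possible with at least 5 cells of each in the hashtag 3 brain (47 carriers and 30 member-free cells) and the hashtag 4 brain (64 and 39). Carriers had a median of 4190 and 4025.5 UMIs in these brains, and member-free cells 3265.5 and 3713. By limma with the brain as a block, 42 of 6663 genes (0.63%) passed a Benjamini-Hochberg adjusted p of 0.05, of which 30 (0.45%) rose and 12 (0.18%) fell in carriers. The design has 1 residual degree of freedom, so each p rests largely on the spread pooled over genes. edgeR called 152 genes (2.28%; 1.59% higher and 0.69% lower), including all 42, and DESeq2 13 (0.195%; 0.15% higher and 0.045% lower). All 42 had the same direction in both brains. A gene with opposite directions could not have passed this test, so this adds no separate support.

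Genes of the wider microglial set rose with the members. Of 35 tested genes of the list of other homeostatic microglia genes, 9 rose and none fell, against 0.45% and 0.18% of all genes tested, and the list's median difference was 1.31 on the log2 scale against 0.10 over all genes. Cst3, the protease inhibitor cystatin C, was at 95.9 and 116.1 per 10000 in carriers of the hashtag 3 and 4 brains, against 40.1 and 25.9 in member-free cells, a log2 difference of 1.71 ± 0.16 (SE, limma adjusted p = 0.000215). The complement genes C1qa, C1qb and C1qc differed by 1.38, 1.07 and 1.68 (log2), Csf1r, the receptor that microglia need to survive, by 1.39, and Trem2, a lipid receptor, by 1.31. Cd81 and Sparc differed by 1.88 and 2.22. P2ry13, a nucleotide receptor related to P2ry12, had a difference of 1.52 ± 0.58 (SE) and did not pass (limma adjusted p = 0.412). Among 15 tested transcription factor and TGF-beta genes, 2 rose, Zfhx3 by 1.83 and Mef2c, a factor of microglial enhancers, by 1.59. Irf8, at 1.20, did not pass in limma and passed in edgeR (adjusted p = 0.00112), while Spi1, which encodes PU.1, at 0.27, passed in neither.

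Immediate early genes, which are transcribed within a short time of many stimuli, rose as well. Of 19 tested, 11 rose and none fell, against 0.45% and 0.18% of all genes tested, with a list median of 1.22 (log2). Jun was at 14.2 and 11.2 per 10000 in carriers of the hashtag 3 and 4 brains, against 5.96 and 1.09 in member-free cells, a log2 difference of 2.25 ± 0.34 (SE, limma adjusted p = 0.00878). Rhob differed by 2.55, Jund by 1.77, Egr1 by 1.72 and Btg2 by 1.71. Fos was not among them, at 0.08. In the brains with hashtags 3 and 4 the difference was 1.24 and 3.25 for Jun and 1.64 and 3.47 for Rhob, so the size differed between the brains. The chemokine genes Ccl3 and Ccl4 rose by 1.29 and 1.04.

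Other genes among the 10 largest increases were Slc1a3, St3gal6, Gzma and Jmjd1c. Slc1a3, a glutamate transporter gene best known from astrocytes, had 29 UMIs in carriers and 0 in member-free cells of the 2 brains, and was at least 5.58-fold higher in carriers against a floor of 3 counts over the group. Gzma, a granzyme of cytotoxic lymphocytes, was at 1.504 and 1.34 per 10000 in carriers and 0.175 and 0.366 in member-free cells. The 14 T and NK cell genes summed to 7.0 and 7.8 per 10000 in carriers and 3.7 and 7.4 in member-free cells, and 1 of 10 tested passed. Their part in the Gzma difference was not tested.

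Genes that fell in carriers included members of the disease-associated set, which microglia and macrophages are known to induce near damaged tissue. Of 24 tested disease-associated genes 3 fell and none rose, against 0.18% and 0.45% of all genes tested. The list as a whole did not move: 12 of the 24 had a positive difference, and the list median was -0.10 (log2). By brain the median was -0.28 with hashtag 3 and 0.001 with hashtag 4. Gpnmb, a transmembrane glycoprotein gene of lipid-laden macrophages, was at 1.13 and 2.12 per 10000 in carriers of the hashtag 3 and 4 brains, against 3.23 and 6.22 in member-free cells, a log2 difference of -1.47 ± 0.25 (SE, limma adjusted p = 0.0185). Fabp5, a fatty acid-binding protein gene, fell by 1.19 and Fth1, the ferritin heavy chain, by 0.74. Apoe, at 0.37, and Spp1, at 0.06, did not pass. Hmox1, which degrades heme, fell by 1.39, the chemokine gene Cxcl2 by 0.98, the C-type lectin gene Clec4n by 1.55, Cd24a by 2.15, AA467197 by 1.90 and Wfdc17 by 0.94. The direction of Clec4n turned in the comparison with 4 brains below, to 0.13 (limma adjusted p = 0.959), and that of Cxcl2 turned to 1.303 with member-free cells of all 4 brains, at least 2 per brain.

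Of 19 interferon response genes, Ifitm3 fell, by 0.77 (log2), and 18 did not pass in limma, where 0.18% of all genes fell. In edgeR 3 were lower, against 0.69% of all genes. Of the 19 interferon response genes, 2 had a positive difference. The list median was -1.31 for the hashtag 3 brain and -0.23 for the hashtag 4 brain. Cxcl10, the chemokine in the study's title, had a difference of -0.41 and did not pass (limma adjusted p = 0.723). None of 23 marrow-derived monocyte genes, 9 neutrophil genes, 7 border macrophage genes and 6 MHC class II genes passed in limma. In edgeR 4 monocyte, 5 neutrophil, 1 border macrophage and 2 MHC class II genes were lower in carriers, and 1 border macrophage gene was higher. The neutrophil genes summed to 55.8 and 46.5 per 10000 in carriers and to 65.6 and 164.6 in member-free cells, so in the hashtag 4 brain neutrophil RNA moved with the comparison. The 23 monocyte genes summed to 86.2 and 152.1 in carriers and 137.4 and 197.4 in member-free cells. In the comparison with 4 brains below, the medians of these lists had the opposite sign, 1.12 for the neutrophil and 0.37 for the monocyte genes, against -0.90 and -0.44 here. Their part in the differences above was not tested.

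Choroid plexus RNA also moved with the comparison. Ttr fell by 0.74 (log2) and Enpp2, the lysophospholipase autotaxin, by 1.20. Neither direction held in every setting: Ttr was at 0.011 with cells grouped on all UMIs and Enpp2 at 1.31 with member-free cells of all 4 brains, at least 2 per brain. In the comparison with 4 brains below, neither passed (limma adjusted p = 0.603 for Ttr and 0.772 for Enpp2). The 6 choroid plexus genes summed to 144.0 and 184.2 per 10000 in carriers and to 211.1 and 361.6 in member-free cells. All 6 had a negative difference, and the part of such RNA in the other differences was not tested.

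**Figure D5:**
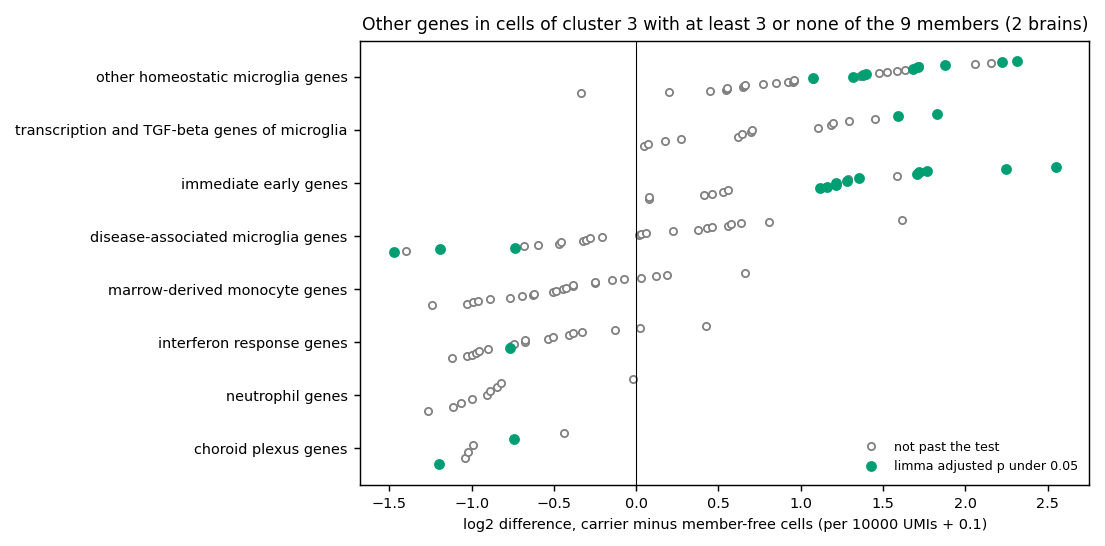
Log2 difference of carrier minus member-free cells of cluster 3 for the tested genes of 8 lists, 1 point per gene, filled where limma's adjusted p was under 0.05. The other homeostatic microglia genes, the transcription and TGF-beta genes and the immediate early genes lie mostly to the right of 0. The neutrophil, choroid plexus, interferon response and monocyte genes lie mostly to the left, and the disease-associated genes on both sides.

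With cells of at most 2 members as the comparison, all 4 brains could enter, a choice made after seeing the data. In the order of hashtags, 16, 27, 47 and 64 carriers stood against 5, 7, 108 and 130 comparison cells. The comparison cells of the hashtag 1 brain had a median own-hashtag share of 62.1%. Differences in the hashtag 1 and 2 brains therefore rest on few comparison cells. Then 26 of 6663 genes (0.39%) passed in limma, 23 (0.345%) higher and 3 (0.045%) lower in carriers, and 20 of them were among the 42. The list of other homeostatic microglia genes had 7 that rose, and immediate early genes 8, with Jun at 1.47 (log2). Gpnmb, Fabp5 and Fth1 were the 3 that fell. Gpnmb was lower in carriers in 4 of 4 brains, by -3.48, -3.27, -0.68 and -1.47. Gzma was at -1.33 over the 4 brains (limma adjusted p = 0.615). Its difference was negative in the hashtag 1 and 2 brains, -5.60 and -1.83, against 0.99 and 1.11 in the others. Carriers of the hashtag 1 brain had 0 Gzma per 10000, so the size of the -5.60 depends on the added 0.1. Ttr differed by 0.88 in the hashtag 1 brain and by -1.86 in the hashtag 2 brain. Without the hashtag 2 brain no gene passed in this 4-brain comparison, although 277 had an unadjusted p under 0.05, and without the hashtag 1 brain 17 passed.

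Surface proteins of carriers and member-free cells were compared by their antibody tags. The median CD45 count, the pan-leukocyte protein, was 7098 and 7824.5 in carriers of the hashtag 3 and 4 brains, against 6484 and 6450 in member-free cells. CD11b, an integrin chain of myeloid cells, had medians of 5438 and 5316.5 in carriers, against 5298 and 4960. The mean log2(count + 1) differed by 0.02 for CD45 and 0.06 for CD11b between carriers and member-free cells. CD86, a costimulatory protein, had medians of 128 and 288 in carriers, against 183.5 and 344, a log2 difference of -0.22 ± 0.13 (SD, n = 2 brains). CD3e, CD4 and CD25, at medians of 3.5 to 14, differed by 0.25, 0.18 and -0.16. In the exact sign-flip permutation test over brains, two-sided, p was 0.5 for each tag, which is the smallest that 2 brains allow, so no tag could pass. With 4 brains the smallest possible p is 0.125.

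Partner genes of the members were read in the same table. Over all cells, Cx3cl1, the ligand of Cx3cr1, was highest in the endothelial-like cluster 4, which carried Cldn5 at 23.0 per 10000, and stood there at 0.206 per 10000, from 24 UMIs in 7.12% of 295 cells. By brain the order was not the same: with hashtags 1, 2, 3 and 4 cluster 4 had 0.110, 0.332, 0.393 and 0.0301 per 10000. Cluster 1 was higher in the hashtag 4 brain, at 0.0884, as were clusters 8 and 5, at 0.0438 and 0.0319 from 1 UMI each. Cluster 0 was higher in the hashtag 1 brain, at 0.152 from 2 UMIs. Cluster 7 was higher in the hashtag 2 brain, at 0.582 from 2 UMIs in 6 cells. Selp and Sele, the endothelial selectins that bind Selplg, were also highest in cluster 4 over all cells, at 0.281 and 0.0504, from 31 and 7 UMIs. Selp had 0 UMIs there in the hashtag 2 brain, and Sele 0 in the hashtag 2 and 4 brains. In cluster 3 these genes had 2, 1 and 0 UMIs in 404 cells.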

How the data were processed

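CITE-seq libraries (cDNA, antibody tags, hashtags) of 1 pool of 4 brains were read. Gene values in the authors' table are on a natural log scale (1 plus UMIs per 10000). The authors' deposited cell table gives UMI, hashtag and antibody tag counts, the mitochondrial fraction, the hashtag class and the cluster. Cell Ranger 2.1, Seurat 2.3.4 and mm10 are named in the submitters' processing notes, and CITE-seq-Count 1.3.4 in the series' design text; the filters used are not stated there. Barcodes were unique (0 duplicated).

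Unlogging gave back the UMI counts (99.8% whole within 0.01). Each cell was thinned once to 2495 UMIs (seed 1) for detection. All cells were kept, without a doublet caller. Carriers (at least 3 members) and member-free cells were averaged per brain with at least 5 cells of both, and log2(mean + 0.1) went into limma 3.58.1 (trend, brain block, genes in at least 5% of cluster 3 cells, members left out, Benjamini-Hochberg over all genes). This scale understates changes of low genes. The block pairs the cell groups because both came from the same animal. edgeR 4.0.16 and DESeq2 1.42.0 were run on summed recovered counts, and the tests were checked on simulated data. Tags were compared by an exact sign-flip test. R 4.3.3 and Python 3.11.15 were used.

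Named genes were the 9 members, the 10 largest increases and decreases that passed with the same sign in both brains, the 10 genes most like the members across clusters, list members that passed, and partner genes; other genes are named as not passing. Results of some genes under this rule are not reported here. The members and lists were chosen with earlier results of these data known.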

Additional observations from a re-analysis of the deposited data

How the results depend on the processing

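The number of genes that passed between carriers and member-free cells, 42 in limma, depended strongly on the settings. It was 149 with a pseudocount of 1, 142 with median-of-ratios scaling, 152 in edgeR, 13 in DESeq2, 84 with cells grouped on all UMIs, 70 with carriers of at least 2 members and 69 in cells with at least 80% own hashtag. It was 0 without the filter on low genes (14448 tested, 810 at an unadjusted p under 0.05) and 3 without the replicate block. Of the 42 genes, all 42 passed in edgeR and with a pseudocount of 1, 41 with median-of-ratios scaling, 37 with own-hashtag cells and 35 on all UMIs. Leaving out either brain left 1 brain and no fit. The 42 directions held in each, which passing the test with 2 brains already required, so this is no check. In settings chosen after seeing the data, with cells of at most 2 members as the comparison, 26 passed over 4 brains, 126 in edgeR, 74 in the hashtag 3 and 4 brains, and 17, 0, 67 and 57 without the hashtag 1, 2, 3 or 4 brain; against member-free cells with at least 2 cells, 109 passed. The causes were not tested.

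Gzma reversed to -1.33 over 4 brains and -1.29 with at least 2 cells, and to -1.17, -2.10 and -2.14 without the hashtag 2, 3 or 4 brain. Clec4n reversed to 0.13 and 0.45, and to 0.34, 0.56 and 0.52 without those brains. Enpp2 became 1.31 and Cxcl2 1.303 with at least 2 cells, Cxcl2 0.046 without the hashtag 3 brain, Ifitm3 0.0049 without the hashtag 2 brain, and Ttr 0.011 on all UMIs. No tag could pass, and signs varied: over 4 brains CD25 was 0.13, CD4 -0.17, CD45 -0.020 and CD86 0.14; with own-hashtag cells CD3e was -0.068 and CD4 -0.054; CD45 was -0.35 percentage points as a share of the 6 tags and CD86 0.10 on all UMIs. With 1 of 4 brains left out CD11b ranged from -0.25 to 0.52 and CD25 from -0.055 to 0.26, with 0.12 without the hashtag 2 and 0.20 without the hashtag 4 brain. CD4 then ranged from -0.23 to -0.054. CD45 ranged from -0.064 to 0.061, with -0.041 without the hashtag 1 and -0.035 without the hashtag 4 brain. CD86 ranged from 0.012 to 0.30, with 0.066 without the hashtag 2 and 0.18 without the hashtag 4 brain. The mean carrier share, 54.7%, ranged from 46.5% to 62.9% without 1 brain, and the median odds ratio from 3.03 to 3.35. Depth limits Sall1 most, with 36 UMIs in cluster 3.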
